A study of Mus musculus with 88 samples.

Results

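Excitatory synapse scaffold genes of the mouse nucleus accumbens were followed as a set of 10: Shank1, Shank2, Shank3, Dlg4, Dlgap1, Dlgap3, Homer1, Homer2, Ppp1r9b and Tiam1. They were taken by name from a count table of 55487 genes. All 10 passed the filter on low counts that left 25420 genes for testing. Their lowest count in any library was 8 reads, for Homer2, and the next lowest was 29 reads, for Shank1.

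Total RNA, depleted of ribosomal RNA, was sequenced from nucleus accumbens of female and male mice backcrossed to C57BL/6, dissected 6 days after surgery. In every mouse, controls included, a herpes simplex vector carried dCas9-CREB(S133D), which joins a Cas9 that cannot cut DNA to an always-active mutant of the transcription factor CREB. A second vector carried a guide RNA to Fosb (g11, targeted) or a non-targeted guide (gNT, control). The D1 arms were D1-Cre mice with Cre-dependent vectors, and the D2 arms were D2-Cre mice with Cre-dependent vectors. The D1-D2 arms were also D1-Cre mice, but with vectors that do not depend on Cre, so that expression there was not limited by Cre. No source used here gives ages or the share of cells infected. With sex, arm and guide there were 12 groups. D1 groups held 8 control and 6 targeted female libraries and 4 control and 7 targeted male libraries. D2 groups held 8 control and 8 targeted female libraries and 8 control and 7 targeted male libraries. D1-D2 groups held 8 control and 12 targeted female libraries and 7 control and 4 targeted male libraries. The labels do not say whether libraries came from separate mice, so p-values measure the spread between libraries, which may in part be technical.

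The 10 genes encode the protein lattice under the membrane of the excitatory synapse, the postsynaptic density. PSD-95, the product of Dlg4, holds glutamate receptors and adhesion molecules at the membrane. The Dlgap proteins link PSD-95 to the Shank proteins, and Homer proteins bind Shank and metabotropic glutamate receptors deeper in the density. Ppp1r9b encodes spinophilin, which brings protein phosphatase to the spine, and Tiam1 encodes an exchange factor that activates the GTPase Rac on spine actin. In medium spiny neurons, the main cells of the accumbens, much of the glutamate input from cortex, hippocampus, amygdala and thalamus ends on spines built with these proteins.

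Total counts ran from 12430387 to 69568367 reads per library. In 4 targeted libraries (17907, 18432, 19610 and 18919) 10 genes held over 90% of the reads. The 10 marker genes of medium spiny neurons summed to between 858.1 and 5755.4 CPM, and none of them was at 0 in any library. The 9 markers of cortical glutamatergic neurons summed to between 28.3 and 1067.0 CPM, with Neurod6, Fezf2 and Emx1 at 0 in at least 1 library each. Fosb, the targeted gene, ranged from 2.43 to 16.7 CPM over the libraries and did not pass the test between guides in any arm. Its log2 difference in females was 0.41 (D1), −0.37 (D2) and 0.08 (D1-D2), and in males 0.48 (D1), −0.30 (D2) and 0.60 (D1-D2). Its smallest adjusted p in these arms was 0.695, in male D1 mice. Libraries 18722 (male D1, targeted) and 18749 (male D1-D2, targeted) lay closer than any pair within a group, with a chi-square per degree of freedom of 3.86 against 16.1 for the closest pair within a group. Library 17376 (female D1, targeted) held Y-linked counts.

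Since CREB binds the cyclic AMP response element and FosB is part of the AP-1 factor, the promoters were searched for TGACGTCA (the full element), TGACG (its short form, contained in the full element) and TGANTCA (an AP-1 site) on both strands. The sequences are RefSeq promoters on GRCm38.p6, from 250 bases before to 50 bases after each start. They covered 8 of the 10 genes with 14 promoters, and Shank1 and Shank2 had none. The full element was in none of the 14, against 1.79% of 32851 mouse promoters of this length. The short form was in 2 of the 14 (20.8% of all promoters), and the AP-1 site in 1 of the 14 (7.81% of all promoters). Homer1 held 3 short forms, with first bases 56, 40 and 14 bases before the start, and Dlg4 held 1 in the third of its promoters, 76 bases before the start. The AP-1 site was in a Tiam1 promoter, 15 bases before the start. These 2 promoters are shown with the motifs in capitals because Homer1 and Tiam1 gave the smallest p-values between guides, and that of Shank3, without a motif, because Shank3 led the set of genes that varied together. Homer1 (chr13:93303507-93303806, plus strand) has 63% G and C, Tiam1 (chr16:89974650-89974949, minus strand) has 47%, and Shank3 (chr15:89499358-89499657, plus strand) has 81%. Each is written 5′ to 3′ on the strand of its gene.
Homer1: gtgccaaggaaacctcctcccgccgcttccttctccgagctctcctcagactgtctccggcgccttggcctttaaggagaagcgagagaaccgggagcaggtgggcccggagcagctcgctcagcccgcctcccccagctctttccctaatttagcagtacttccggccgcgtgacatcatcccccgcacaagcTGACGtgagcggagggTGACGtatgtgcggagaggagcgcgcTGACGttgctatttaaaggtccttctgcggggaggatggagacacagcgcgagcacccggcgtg
Tiam1: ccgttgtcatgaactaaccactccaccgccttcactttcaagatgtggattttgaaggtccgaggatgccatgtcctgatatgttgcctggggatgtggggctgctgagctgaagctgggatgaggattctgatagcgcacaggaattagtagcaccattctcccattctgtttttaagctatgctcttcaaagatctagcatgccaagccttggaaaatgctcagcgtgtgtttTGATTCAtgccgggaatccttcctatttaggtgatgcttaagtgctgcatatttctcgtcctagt
Shank3: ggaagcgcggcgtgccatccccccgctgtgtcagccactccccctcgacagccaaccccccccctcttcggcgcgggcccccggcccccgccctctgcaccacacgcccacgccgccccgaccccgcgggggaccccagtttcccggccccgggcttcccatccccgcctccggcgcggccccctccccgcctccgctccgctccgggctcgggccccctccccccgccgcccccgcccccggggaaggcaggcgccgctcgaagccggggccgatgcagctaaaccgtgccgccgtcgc
A match is a stretch of letters and shows no binding.

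Levels differed widely between the 10 genes. Per kilobase of annotated exon, over the 87 libraries, Ppp1r9b was highest with a mean of 92.8 RPKM. Dlgap3 followed at 32.6, Dlg4 at 19.95, Homer1 at 18.2, Shank3 at 11.04 and Tiam1 at 9.91 RPKM. Dlgap1 had 6.95, Shank2 4.56, Shank1 3.28 and Homer2, the lowest, 1.17 RPKM. Among the Shank genes the order was thus Shank3, Shank2, Shank1, and Homer1 stood far above Homer2. Ppp1r9b was above Dlgap3, and Shank1 above Homer2, in each of the 87 libraries. The least settled neighbours were Dlg4 and Homer1, with Dlg4 higher in 58 of 87 libraries, and Shank3 and Tiam1, with Shank3 higher in 57 of 87. For the other neighbours the first was higher in 76 to 85 libraries. These orders rest on the summed length of all annotated exons. It is 4521 bases for Dlgap3, 13251 for Dlg4, 11976 for Homer1 and 17890 for Dlgap1. Their longest protein-coding transcripts have 4207, 6326, 5713 and 7173 bases, so the places of these genes depend on the length used.

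Spread within groups also set the genes apart. The standard deviation of log2 CPM within groups, with batch removed, was 0.33 for Tiam1, 0.34 for Homer1 and 0.36 for Dlg4. It was between 0.44 and 0.51 for Dlgap1, Shank2, Ppp1r9b, Shank3 and Dlgap3, 0.68 for Shank1 and 0.75 for Homer2. All 10 exceeded 0.27, the median over 10649 tested genes with a mean of at least 10 CPM. From the lowest to the highest library, Homer2 ranged from 4.46 to 86.3 CPM and Homer1 from 97.5 to 353.1 CPM.

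**Figure D1:**
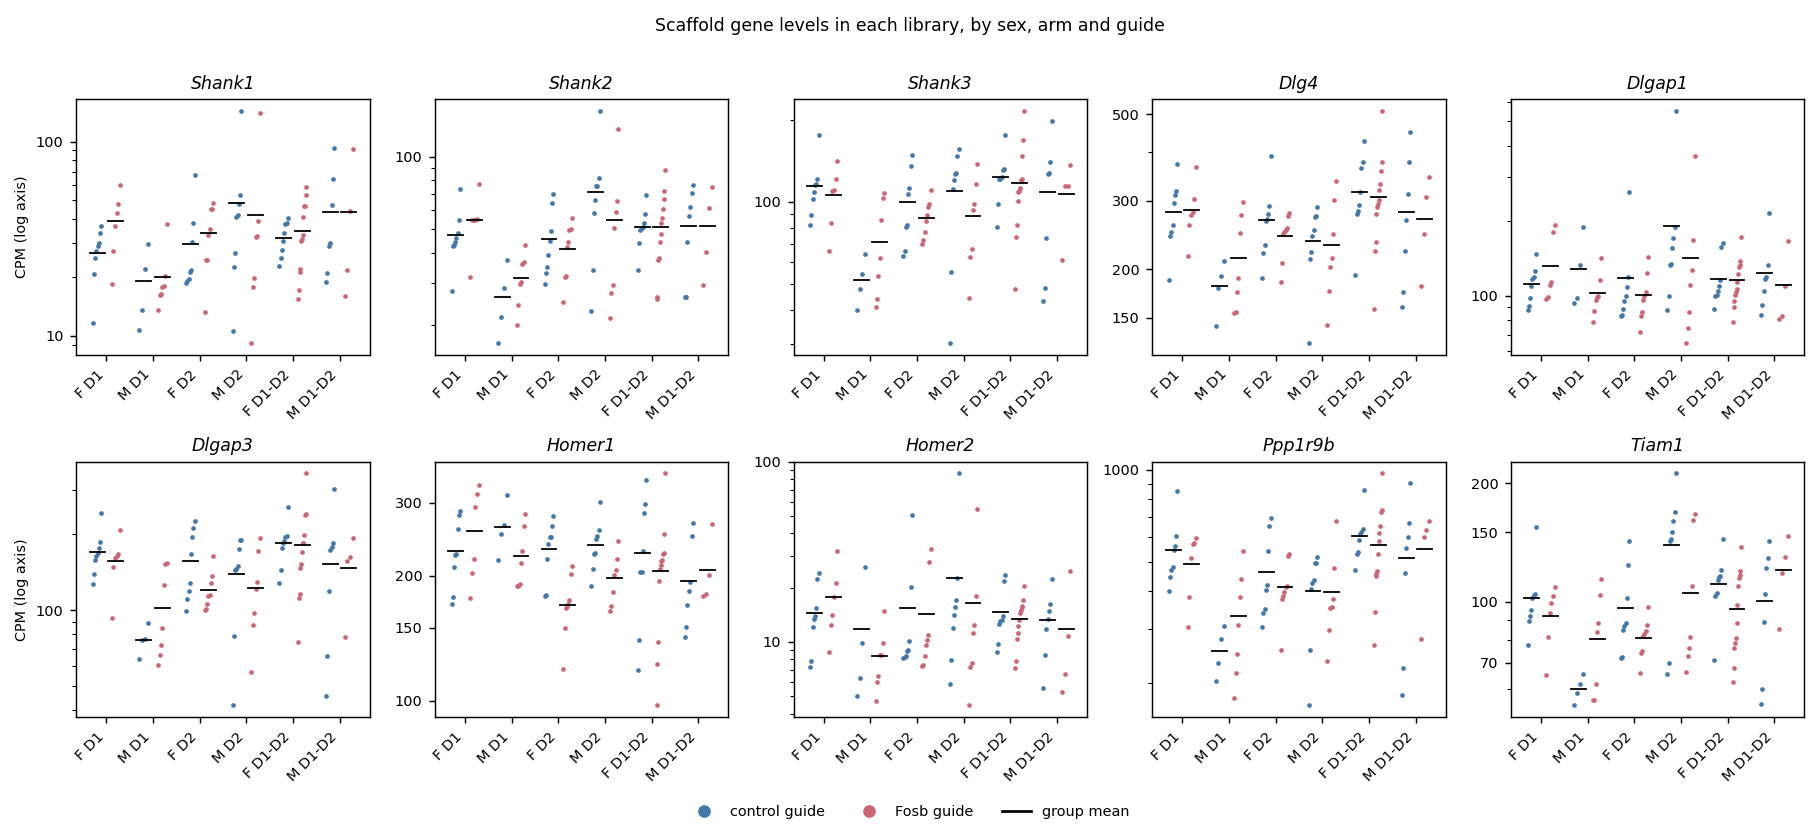
Level of each scaffold gene in each of the 87 libraries (points, TMM-scaled CPM on a log axis), by sex and arm, with control libraries in blue, libraries with the Fosb guide in red and group means as black bars. Male D1 controls lie low for 7 of the 10 genes, and single male D2 libraries stand far above their groups for Shank1, Dlgap1 and Homer2.

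Over the 12 groups 6 of the 10 genes differed (edgeR quasi-likelihood F test on 11 coefficients, adjusted over all genes), where 16.4% of all genes tested did. These were Dlgap3 (adjusted p = 0.00436), Ppp1r9b (0.00521), Tiam1 (0.00550), Shank3 (0.00950), Shank2 (0.0192) and Dlg4 (0.0277). Shank1 (0.133), Homer1 (0.192), Homer2 (0.610) and Dlgap1 (0.919) did not pass. The group with the lowest mean was male D1 controls for all 6 genes that passed and for Shank1. Dlgap3, for example, had a mean of 76.1 CPM there and of 184.1 CPM in its highest group, female D1-D2 controls, a ratio of 2.42. Homer1 had the opposite order, with its highest mean, 262.1 CPM, in male D1 controls and its lowest, 170.4 CPM, in targeted female D2 libraries, a ratio of 1.54.

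Between the guides no scaffold gene passed the test in any of the 6 arms, and in no arm did the levels of the targeted and control libraries of a scaffold gene separate without overlap. Background was low as well. Of all genes, those that passed in females were 0.00393% (D1), 0% (D2) and 0% (D1-D2), and in males 0% (D1), 0.0629% (D2) and 0.00393% (D1-D2). Groups did not overlap in females for 0.0197% (D1), 0.00393% (D2) and 0% (D1-D2) of all genes, and in males for 0.763% (D1), 0% (D2) and 0.275% (D1-D2). At an unadjusted p below 0.05 there was 1 gene in male D1 (Tiam1), 1 in female D2 (Homer1) and 0 in the other arms. Of all genes 7.11% (male D1) and 1.66% (female D2) were below it, and 2.18% to 4.48% in the other arms. The DESeq2 Wald test and limma-voom with quality weights also called 0 of the 10 in every arm. By limma-voom 2.94% of all genes passed in male D1 and 0.763% in female D1-D2 mice. As the RNA came from whole tissue, a change confined to infected cells is diluted by the others, and fewer cells of a type cannot be told apart from less RNA per cell.

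Homer1 encodes both long Homer1 forms, which link receptors to Shank, and the short, activity-induced Homer1a, which uncouples them. The counts do not separate these forms. In female D2 mice control libraries ranged from 178.7 to 277.9 CPM with a median of 242.8, and targeted libraries ranged from 119.0 to 210.9 CPM with a median of 169.9. Most targeted libraries were below most controls, but the ranges overlapped. Means were 231.5 ± 36.5 (SD, n = 8) and 170.4 ± 28.5 CPM (SD, n = 8), a log2 difference of −0.44 (SE 0.17, unadjusted p = 0.0107 by edgeR, adjusted p = 1.0). In male D2 mice controls ranged from 188.6 to 301.0 CPM (median 236.0) and targeted libraries from 164.1 to 242.2 CPM (median 201.0), a log2 difference of −0.29 (SE 0.18). Over both sexes of the D2 arms the log2 difference was −0.36 (SE 0.12, unadjusted p = 0.0040, adjusted p = 1.0), with 0% of all genes passing. Without the same 4 libraries it was −0.33 (unadjusted p = 0.0100 by edgeR). In batch 1 of male D2 mice Homer1 differed by −0.54 (2 control and 4 targeted libraries) and in batch 2 by −0.15 (6 control and 3 targeted libraries). The D1 arms gave 0.16 in females and −0.24 in males, and the D1-D2 arms −0.15 and 0.09. Homer2, a second family member, had differences from −0.49 in male D1 to 0.28 in female D1 mice with standard errors of 0.35 to 0.53.

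Tiam1 had the smallest p in male D1 mice. The 4 controls were at 54.5, 58.4, 61.7 and 65.3 CPM, and the 7 targeted libraries ranged from 56.1 to 114.1 CPM with a median of 83.4. The controls were tightly grouped and the targeted libraries spread from their level upwards. The log2 difference was 0.42 (SE 0.20, unadjusted p = 0.0399 by edgeR, adjusted p = 0.686). With limma-voom it was 0.46 (adjusted p = 0.0728). With the GC index of each library (a measure of its composition defined with the controls) as a covariate it was 0.16 (adjusted p = 1.0). The index itself differed between guides in male D1 mice, with a median of −0.39 in control and −0.13 in targeted libraries. Guide and index thus cannot be fully told apart in any value of this arm with that covariate. In female D1 mice Tiam1 differed by −0.16, and the difference between the sexes was −0.58 (SE 0.27, unadjusted p = 0.0324, adjusted p = 0.987).

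The Shank genes encode the master scaffolds of the density. Shank3 in male D1 mice had 40.1, 47.6, 54.1 and 64.3 CPM in the 4 controls and 41.1 to 107.7 CPM (median 61.9) in the targeted libraries, a log2 difference of 0.46 (SE 0.31, adjusted p = 0.705). With the GC index as a covariate it was 0.01. In the other arms Shank3 differed by between −0.19 and 0.12. In male D2 mice its value of 0.12 joined 0.84 in batch 1 and −0.37 in batch 2, and Dlgap3 (0.81 and −0.24) and Ppp1r9b (0.85 and −0.20) split the same way. Shank2 differed by between −0.15 and 0.27 over the 6 arms. Shank1 in female D1 mice ranged from 11.6 to 36.6 CPM in controls (median 28.2) and from 18.5 to 60.0 CPM in targeted libraries (median 39.9), a log2 difference of 0.54 (SE 0.36, adjusted p = 1.0), the largest of the 60 values by gene and arm. It was between −0.12 and 0.21 in the other arms, and the −0.12 of male D1-D2 mice became −0.66 without targeted library 18919. In female D1 mice cortical markers were higher in targeted than in control libraries (median of the mean log2 CPM 3.33 against 0.63). With their level as a covariate the D1 effect minus the D2 effect of Shank1 in females was −0.20 in place of 0.40.

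The linkers showed the same small sizes. Dlg4 differed by between −0.13 and 0.24 with standard errors of 0.16 to 0.22, the narrowest of the linkers. Its 95% intervals in female D1-D2 mice ran from −0.37 to 0.28. Dlgap3 had its lowest value in female D2 mice, where controls ranged from 99.5 to 225.9 CPM (median 147.8) and targeted libraries from 100.5 to 164.1 CPM (median 114.1), a log2 difference of −0.38 (SE 0.25, adjusted p = 1.0). Its highest was 0.43 in male D1 mice, which became −0.042 with the GC index as a covariate. Dlgap1 differed by between −0.32 in male D1 and 0.24 in female D1 mice. Ppp1r9b, the spine phosphatase partner, differed by between −0.17 in female D2 and 0.38 in male D1 mice, the latter −0.067 with the GC index.

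**Figure D2:**
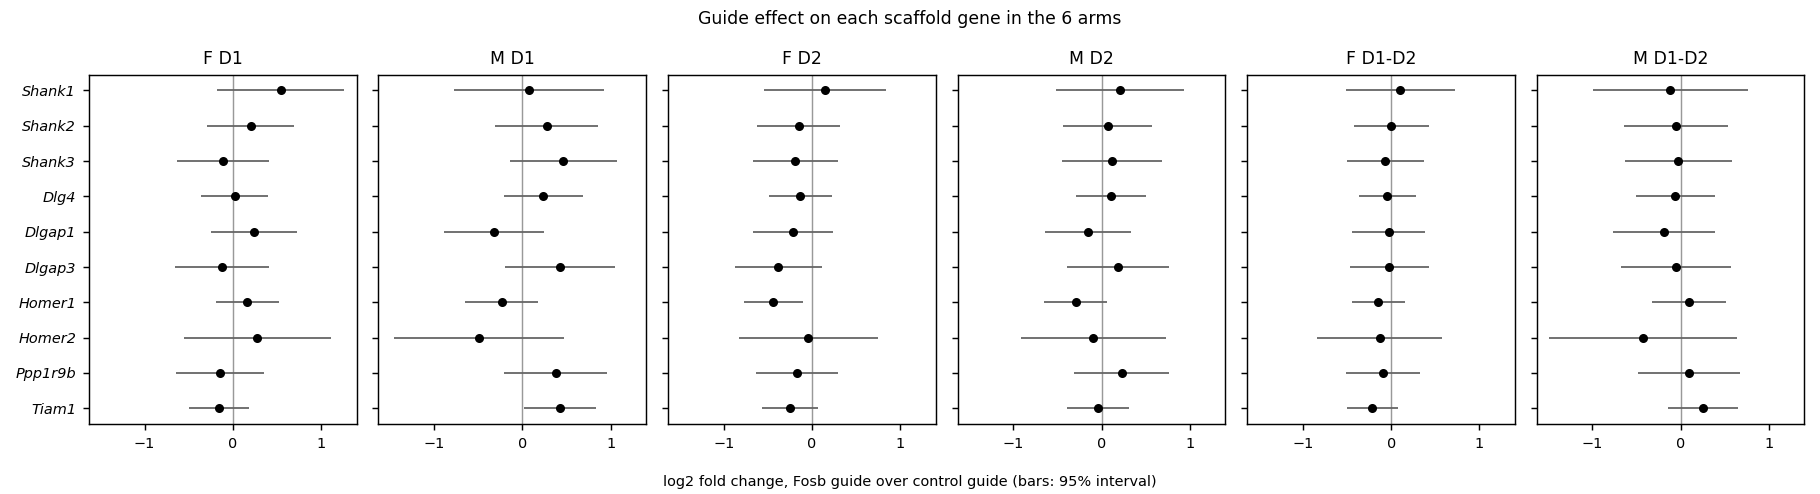
Log2 fold change of each scaffold gene between targeted and control libraries (points) with 95% intervals (bars), 1 panel per arm. Intervals leave out 0 for Homer1 in female D2 and Tiam1 in male D1 mice, and neither passed after adjustment.

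As a list, in females 6 of the 10 scaffold genes lay above 0 in D1 mice (median 0.09), 1 in D2 (−0.18) and 2 in D1-D2 (−0.06). In males 7 lay above 0 in D1 (0.26), 6 in D2 (0.09) and 3 in D1-D2 mice (−0.05). With the GC index as a covariate Shank2, Dlg4, Dlgap3 and Ppp1r9b lay below 0 in male D1, and without a batch term Shank1, Shank2, Shank3 and Dlgap3 did in male D2 mice. The medians of all genes tested in the same arms lay between −0.03 and 0.03. Of all genes 50.8% (D1), 43.1% (D2) and 49.0% (D1-D2) lay above 0 in females. In males these shares were 54.0%, 52.7% and 45.4%. Over both sexes, 0 of the 10 passed in D1 (0.00393% of all genes), 0 in D1-D2 (0%) and 0 over all 6 arms (0%). At an unadjusted p below 0.05 there were 0 genes in each of these means, beside 7.32% (D1), 2.58% (D1-D2) and 9.52% (all arms) of all genes. Between the sexes the guide effect passed for 0 of the 10 in D1 (background 0.00393%), D2 (0%) and D1-D2 (0%). Tiam1 in D1 was the 1 gene at an unadjusted p below 0.05, beside 3.73% (D1), 1.26% (D2) and 4.21% (D1-D2) of all genes. DESeq2 and limma-voom called 0 in each of them too.

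The effect of the guide was then compared between D1 and D2 arms. In females the D1 effect minus the D2 effect was above 0 for 10 of 10 scaffold genes, with a median of 0.29, where 54.9% of all genes were above 0 and their median was 0.02. None passed (background 0.00393%), and 1 gene had an unadjusted p below 0.05 (3.58% of all genes). That gene was Homer1, at 0.60 (SE 0.24, unadjusted p = 0.0167, adjusted p = 1.0), with 0.16 in D1 and −0.44 in D2 mice. In males 7 of 10 were above 0 (52.0% of all genes) with a median of 0.14, and none passed (background 0%). Over the sexes 9 of 10 were above 0 (55.3% of all genes) with a median of 0.18, and none passed (background 0.00393%). Tiam1 (0.28, SE 0.18) and Homer1 (0.33, SE 0.18) were furthest from 0 relative to their errors. DESeq2 and limma-voom also called 0 in these 3 comparisons. Several of these genes vary together from library to library so that their directions are not separate observations. The level of cortical markers was higher in targeted than in control female D1 libraries (median of the mean log2 CPM 3.33 against 0.63), and with it as a covariate the female difference turned to −0.20 for Shank1, −0.25 for Dlgap1 and −0.82 for Homer2. That of Homer1 was then 0.38 (unadjusted p = 0.121 by edgeR, adjusted p = 1.0). Without this covariate and without libraries 17907, 18432, 19610 and 18919 that of Homer1 was 0.54 (unadjusted p = 0.0336 by edgeR).

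Levels themselves were compared between D1-Cre and D2-Cre controls. Over the sexes 0 of 10 passed (background 0.0118%), as in females (0.0197%) and in males (0%), with 0 at an unadjusted p below 0.05 in each. Of all genes 2.56% (over the sexes), 3.91% (females) and 2.38% (males) were below that value. Over the sexes the values ran from −0.10 for Tiam1 to 0.15 for Dlgap1 and Homer2 with a median of −0.01. DESeq2 and limma-voom called 0 as well. Batch 2 held male D2 libraries alone. Without a batch term 5 of 10 passed in males, beside 49.6% of all genes, and 3 of 10 over the sexes, beside 34.2%. Standard errors over the sexes ran from 0.14 for Tiam1 to 0.34 for Homer2.

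The wider postsynaptic list gave a similar picture between guides. Of 26 further scaffold and spine genes none passed in any arm. Their medians in females were 0.06 (D1), −0.17 (D2) and −0.13 (D1-D2), and in males 0.23 (D1), −0.04 (D2) and 0.07 (D1-D2). Those with the smallest p were Iqsec2 in female D1 (0.44), Camk2b in male D1 (0.48), Dlg1 in female D2 (−0.22) and in male D2 (−0.21), Cttn in female D1-D2 (−0.19) and Actn2 in male D1-D2 mice (0.34). None of 9 adhesion partners (neuroligins, neurexins and Lrrtm proteins) and none of 8 glutamate receptor genes passed in any arm. In the female D2 arm 0 of 26 further scaffold genes, 1 of 9 adhesion partners and 0 of 8 receptor genes lay above 0, beside 43.1% of all genes. The female D1-D2 arm was alike, with 1 of 26, 1 of 9 and 0 of 8, beside 49.0% of all genes. Of the 10 medium spiny neuron markers 0 lay above 0 in each of these 2 arms. Other arms differed. In the same order of the 4 lists, the counts above 0 were 17, 6, 4 and 1 in female D1 mice. They were 22, 5, 5 and 9 in male D1, 12, 4, 0 and 2 in male D2 and 20, 6, 8 and 10 in male D1-D2 mice. Activity-induced genes, a list of 13 that includes Fosb, Arc and Egr1, had 13 above 0 in female D1, 3 in female D2 and 4 in female D1-D2 mice, and 12, 0 and 13 in the same arms of males. Of all genes 50.8%, 43.1% and 49.0% lay above 0 in these arms of females and 54.0%, 52.7% and 45.4% in those of males, and no gene of the list passed.

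Female and male controls differed in the scaffold genes. Over the D1, D2 and D1-D2 controls 6 of 10 were higher in females and none was lower, where 15.3% of all genes were higher in females and 28.6% passed in either direction. Without a batch term 3 of 10 passed (22.3% of all genes), and by limma-voom 6 (23.7%). Dlgap3 had a log2 difference of 0.78 (SE 0.18, adjusted p = 0.000928), Shank3 0.67 (SE 0.17), Ppp1r9b 0.66 (SE 0.17), Shank2 0.49 (SE 0.16), Tiam1 0.44 (SE 0.11) and Dlg4 0.43 (SE 0.13). Homer1 (−0.02, SE 0.11), Dlgap1 (−0.01, SE 0.16), Shank1 (0.27, SE 0.23) and Homer2 (0.41, SE 0.27) did not pass. The median of the 10 was 0.43 and that of all genes 0.00. The linkers Dlg4 and Dlgap3 and both spine regulators passed, while the linker Dlgap1 and both Homer genes did not. Of the Shank genes Shank2 and Shank3 passed and Shank1 did not. Among the further genes 16 of 26 scaffold and spine genes were higher in females and none was lower (median 0.34), led by Synpo (0.65), Iqsec1 (0.49), Camk2b (0.54) and Cttn (0.30). Higher in females were also 3 of 9 adhesion partners (Nlgn2 at 0.50, Nlgn3 at 0.45 and Lrrtm1 at 0.35), and 3 of 8 receptor genes, among them Grin1 (0.46) and Gria1 (0.29). Of the cell type markers, all 10 of medium spiny neurons lay above 0 (median 0.38, 3 passed), as did all 5 astrocyte markers (median 0.36, 1 passed). So did 4 of 6 oligodendrocyte (0.17, 1 passed), 4 of 6 microglia (0.19, 2 passed) and 6 of 9 cortical markers (0.19, 1 passed). Lymphocyte markers had 4 of 5 above 0 (0.26, 1 passed) and choroid plexus markers 4 of 4 (0.36, 0 passed). Of all genes 50.2% lay above 0 and 15.3% passed as higher in females. In D1 controls the medium spiny neuron markers had a median of 0.63. Their summed level was 1861.6 to 4480.6 CPM in females and 1907.3 to 2513.7 CPM in males. Medians of the other lists there were 0.49 (astrocyte), 0.03 (oligodendrocyte), 0.37 (microglia), −1.06 (cortical), 0.67 (lymphocyte) and 0.73 (choroid plexus). Medium spiny neuron markers had a median of 0.02 in D2 and 0.40 in D1-D2 controls. Astrocyte markers had 0.55 and −0.08, and microglia markers 0.48 and −0.11. The part of these markers in the scaffold difference was not tested.

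By arm, scaffold genes passed in D1 controls. Male D1 controls had 63.7, 75.8, 76.5 and 88.6 CPM of Dlgap3, while the 8 female D1 controls ranged from 126.5 to 244.3 CPM with a median of 166.0. Every female D1 control was thus above every male one. For Shank3 the males had 40.1, 47.6, 54.1 and 64.3 CPM and the females 82.3 to 175.9 CPM (median 112.2), and for Ppp1r9b the males had 203.4, 231.9, 278.0 and 306.6 CPM and the females 401.3 to 849.5 CPM (median 513.0). Neither pair of groups overlapped. Tiam1, with 54.5 to 65.3 CPM in males and 77.8 to 154.5 CPM in females, did not overlap either, which makes 4 of the 10 genes against 10.8% of all genes. Log2 differences there were 1.16 for Dlgap3, 1.15 for Shank3, 1.10 for Ppp1r9b, 0.87 for Shank2, 0.77 for Tiam1 and 0.63 for Dlg4, and these 6 passed (background 22.4%, and 12.6% higher in females). Dlg4 and Shank2 did not pass there without male D1 control 17789, 18068 or 18069 (adjusted p of 0.0594 to 0.0969 for Dlg4 and 0.0506 to 0.0938 for Shank2), and without a batch term (0.0604 and 0.0859), where 4 passed beside 10.2% of all genes. Dlg4 also missed by DESeq2 (0.0530), with DESeq2 size factors (0.0642) and with no filter on low counts (0.0502). By limma-voom 7 passed, with Shank1 added, beside 36.9% of all genes. In D2 controls 0 of 10 passed (background 0.0551%, and 0.0315% higher in females), although 9 of 10 lay above 0 (55.2% of all genes) with a median of 0.63. There 2 had an unadjusted p below 0.05 (10.8% of all genes). In D1-D2 controls 0 of 10 passed (background 0.0629%, and 0.0315% higher in females). Of these 10 genes 7 lay above 0 (44.6% of all genes) with a median of 0.16. At an unadjusted p below 0.05 there were 0 (7.04% of all genes). DESeq2 called 0 in both, as did limma-voom. Without a batch term Shank2, Dlgap1 and Tiam1 passed as lower in female D2 controls, beside 45.1% of all genes. The difference between the D1 and D1-D2 values, tested directly, passed for 0 of 10 by edgeR (background 0%) and by DESeq2, and for 5 of 10 by limma-voom (17.9% of all genes). By edgeR 5 were at an unadjusted p below 0.05, beside 13.6% of all genes. D1 was not tested against D2 controls in this way. The separate comparisons by arm were added after the data were seen.

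A measure of each library moved with this result. The GC index, added after the data were seen, is the median centred log2 CPM of protein-coding genes with the highest GC content (from 55.1%) minus that of those with the lowest (up to 45.4%). It was between −0.54 and −0.30 in the 4 male D1 controls and between −0.15 and 0.20 in the 8 female D1 controls, without overlap. Transcripts of Dlgap3 (63.9% G and C), Shank3 (62.4%), Ppp1r9b (62.3%) and Shank1 (61.4%) were in the highest class, Shank2 (55.0%), Tiam1 (52.2%), Dlgap1 (50.9%) and Dlg4 (46.8%) between, and Homer2 (44.4%) and Homer1 (36.9%) in the lowest. With the index as a covariate 0 of 10 passed in the controls over the 3 arms and 0 in D1 controls, and over the 3 arms 52 genes of 25420 passed in place of 7259. The log2 difference of Dlgap3 was then 0.39 over the 3 arms, of Shank3 0.29, of Ppp1r9b 0.29, of Tiam1 0.19 and of Homer1 0.19. As the index is itself computed from expression and differs with sex in D1 controls, sex and the index cannot be told apart there. Of the 8 male D2 controls, the 2 of batch 1 had an index of −0.60 and −0.16 and Shank3 at 30.2 and 55.2 CPM, and the 6 of batch 2 had 0.03 to 0.22 and 111.6 to 156.7 CPM.

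**Figure D3:**
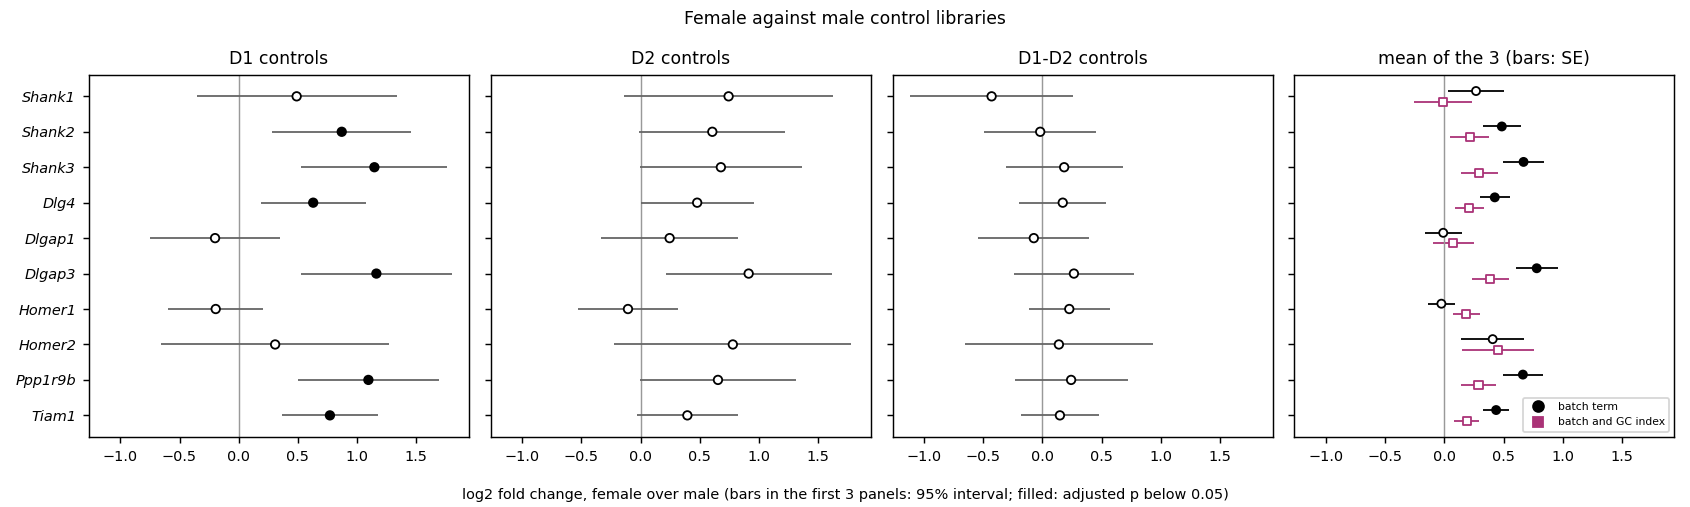
Log2 fold change of each scaffold gene between female and male controls, by arm with 95% intervals, and in the last panel the mean of the 3 arms with standard errors, with a batch term (circles) and with batch and the GC index (squares). Filled points have an adjusted p below 0.05: 6 genes in D1 controls, 6 in the mean with the batch term and none with the index.

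Within groups the scaffold genes fell into those that varied together and those that did not. Correlations here are Pearson's r of log2 CPM over 87 libraries, with group and batch means removed, given as a description: libraries share depth and composition. Shank3 and Dlgap3 had r = 0.97, Dlgap3 and Ppp1r9b 0.94, Shank3 and Ppp1r9b 0.94, and Dlg4 and Shank3 0.91. Tiam1 had r between 0.77 and 0.81 with these 4 genes and Shank2. A further group was Dlgap1 with Homer2 (0.89) and Shank1 with Homer2 (0.74) and Dlgap1 (0.71). Dlgap1 and Dlgap3, members of 1 family, had r = 0.07, and Shank1 and Shank3 had 0.33. Shank2 lay between, with r = 0.86 with Dlg4, 0.81 with Shank1 and 0.57 with Homer2. The highest r of Homer1 with any of the other 9 genes was 0.30, with Dlgap1.

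The genes most like each member, among 14241 others, differed between these groups. Jph3 and Agap2 were among the closest for Shank3 (r = 0.93 each), Dlgap3 (0.95 and 0.93) and Ppp1r9b (0.95 each). Closest were Fbxl16 for Dlg4 (0.95), Camk2a for Shank2 (0.94), Chd5 for Shank1 (0.85), Rasal2 for Dlgap1 (0.92), Grk3 for Homer2 (0.91), Pcdhgb1 for Tiam1 (0.89) and Ppp3r1 for Homer1 (0.89). Ppp3r1 encodes the regulatory subunit of calcineurin, and Camk2a the alpha subunit of the main kinase of the postsynaptic density.

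**Figure D4:**
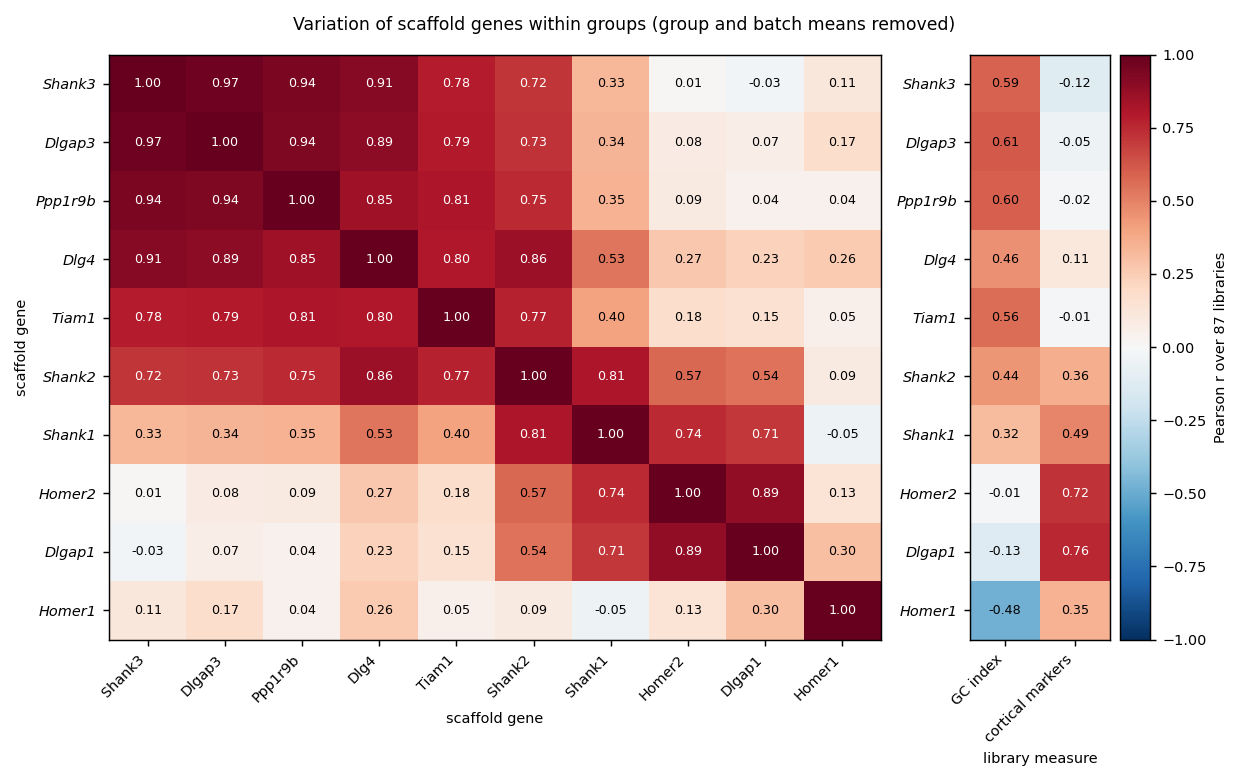
Pearson's r between scaffold genes over 87 libraries after removal of group and batch means (left), and of each gene with the library GC index and the mean level of cortical markers (right). Shank3, Dlgap3, Ppp1r9b and Dlg4 form a block with r of 0.85 to 0.97, Dlgap1 and Homer2 a pair at 0.89, and Homer1 stands apart.

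The 2 groups of genes went mainly with different measures of the libraries. With the GC index r was 0.61 for Dlgap3, 0.60 for Ppp1r9b, 0.59 for Shank3, 0.56 for Tiam1 and 0.46 for Dlg4, and −0.48 for Homer1. With the mean log2 CPM of the 9 cortical markers r was 0.76 for Dlgap1, 0.72 for Homer2 and 0.49 for Shank1, and between −0.12 and 0.11 for Shank3, Dlgap3, Ppp1r9b, Tiam1 and Dlg4. Other values lay between: Shank2 had r = 0.44 with the GC index and 0.36 with the cortical markers. Shank1 also had 0.32 with the GC index, and Homer1 0.35 with the cortical markers. The 2 measures had r = −0.14 with each other. Dlgap1 and Homer2 were highest in library 3631 (male D2 control), at 550.3 and 86.3 CPM, and next in 3632 (male D2 targeted), at 362.9 and 54.5 CPM. Library 17906 (female D2 control) held 261.4 CPM of Dlgap1 and 50.3 CPM of Homer2, the third highest levels of each. Cortical markers were at 5.24, 5.25 and 4.90 on the log2 scale in these 3 libraries, where the median of their groups was 3.55, 1.24 and 0.74. Without the 3 libraries the guide effect in female D2 mice was 0.52 for Homer2 in place of −0.04 and 0.07 for Dlgap1 in place of −0.21, and neither passed. The part of the cortical markers in these levels was not tested.

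**Figure D5:**
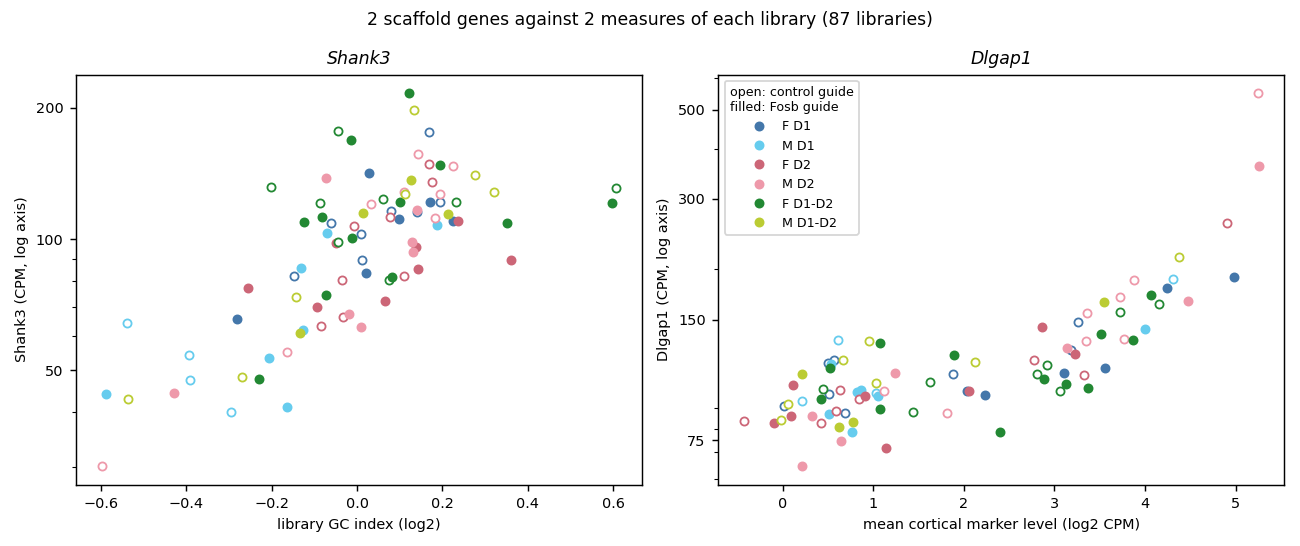
Shank3 against the library GC index (left) and Dlgap1 against the mean level of 9 cortical markers (right) in 87 libraries, coloured by sex and arm, with open points for control and filled for targeted libraries. Shank3 is lowest, at 30.2 CPM, in the library with the lowest index, −0.60, and Dlgap1 highest, at 550.3 CPM, in a library with cortical markers at 5.24.

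The genes lie on several chromosomes of mm10 (GENCODE M21). Shank1 (chr7:44310253-44360572), Shank2 (chr7:144001928-144424494) and Homer2 (chr7:81600481-81707527) are on chromosome 7, and Dlg4 (chr11:70016942-70047522) and Ppp1r9b (chr11:94991035-95006899) on chromosome 11. Shank3 is at chr15:89499623-89560261, Dlgap1 at chr17:69969073-70821413, Dlgap3 at chr4:127169204-127237022, Homer1 at chr13:93299635-93405129 and Tiam1 at chr16:89787111-90143769. Dlg4, Dlgap3 and Ppp1r9b overlap no other annotated gene. The other 7 overlap 1 to 3 genes each, among them the antisense genes Gm14372 at Shank2, 5031415H12Rik at Dlgap1 and Gm44570 at Homer2. As no source used here gives the strand setting of the counting, reads of these cannot be told apart with certainty.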

How the data were processed

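Reads of ribosomal RNA-depleted total RNA from nucleus accumbens were counted per gene by the authors, and the deposited table holds raw counts. Per the submitters' processing notes Trim Galore, HISAT2, SAMtools, featureCounts of Subread and DESeq2 1.27 were used with mm10. For the annotation and the strand setting: not given in the sources used here. Columns were matched to libraries by the number in their titles: 87 of 88 labelled libraries had a column, 1 female D2 targeted library was not analysed here, and 1 unlabelled column stayed unused.

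All libraries were fitted with edgeR 4.0.16 (R 4.3.3): quasi-likelihood with robust dispersion, TMM scaling, filterByExpr by group, and terms for the 12 groups and the sequencing batch. Adjusted p is Benjamini-Hochberg over 25420 genes, with a threshold of 0.05. There were 24 comparisons. Positive guide effects mean higher with the Fosb guide. CPM are TMM-scaled, RPKM divide them by exon length (GENCODE M21), and log2 CPM used a prior count of 2. Group values are means ± SD and intervals are 95%. Alternatives were DESeq2 size factors, no filter, DESeq2 1.42.0, limma-voom (limma 3.58.1), no batch term, each arm alone, batch 1 alone, a cortical marker covariate and libraries left out (17907, 18432, 19610 and 18919; 18722 and 18749; 17376; each of the male D1 control and male D1-D2 targeted libraries). Added after the data were seen were the GC index as a covariate (from 16506 protein-coding genes), the comparison of sexes by arm and the fit without 3631, 3632 and 17906. Of 55487 table entries, 93 had no gene name. The fit was tested on simulated counts. The named genes are the 10 members, up to 4 genes of each related list that passed (else up to 2 of smallest p), Fosb, and up to 3 genes most like each member (at least 1 CPM). One gene of the related lists is not reported here. The members and lists were chosen with earlier results of these data known. Markers of other cells summed, from the lowest to the highest library, to 563.5 to 2902.9 CPM (astrocytes), 1056.8 to 3717.8 (oligodendrocytes), 256.9 to 1566.1 (microglia), 4.62 to 212.3 (lymphocytes) and 2.82 to 49.4 CPM (choroid plexus).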

Additional observations from a re-analysis of the deposited data

Results flagged for a closer look

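A library stood apart from its group, by Dixon's 95% criterion on CPM, in 17 of the 110 combinations of a scaffold gene and a group of up to 10 libraries. Chance flags about 1 in 20 groups if values are normally distributed, which was not tested for CPM. Each flagged library was the highest of its group. The flags are not separate, as a few libraries gave most of them. Library 3631 (male D2 control) was highest of its group for Shank1 at 143.6 CPM (the others up to 53.2), Shank2 at 155.0 CPM, Dlgap1 at 550.3 CPM (the others up to 188.2) and Homer2 at 86.3 CPM (the others up to 22.6). Library 3632 (male D2 targeted) was highest for Shank1 at 140.7 CPM, Shank2 at 130.1 CPM, Dlgap1 at 362.9 CPM and Homer2 at 54.5 CPM. Library 17906 (female D2 control) was highest for Shank1 at 67.1 CPM, Dlgap1 at 261.4 CPM and Homer2 at 50.3 CPM. Library 19219 (male D1-D2 control) was highest of its group for Dlgap1 at 214.8 CPM. The mean log2 CPM of the cortical markers was 5.24 in 3631, 5.25 in 3632, 4.90 in 17906 and 4.37 in 19219, and its part in these levels was not tested.

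Library 19755 (female D1 control) was highest of its group for Shank3 at 175.9 CPM, Ppp1r9b at 849.5 CPM and Tiam1 at 154.5 CPM (the others up to 104.6). Library 19750 (female D1-D2 control) was highest for Ppp1r9b at 854.5 CPM (the others up to 638.8). Shank1 was highest of the targeted male D1 libraries in 18368, at 37.8 CPM.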

How the results depend on the processing

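No paired analysis was possible because the libraries share no replicate numbers. Over the 24 comparisons the 10 genes gave 3400 values under other settings. Of these 26 were no longer past the threshold, all of them between female and male controls over the arms or in D1, and 13 newly passed it. A further 73 turned sign, 4 of them called, and 77 shifted by more than 1 SE with their sign kept. The other 3211 stayed on their side of the threshold, and 245 of them, all uncalled, changed sign within 1 SE. The cause was not tested.

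Without a batch term the number of scaffold genes called was 3 between D1 and D2 controls (34.2% of all genes), 5 between those of males (49.6%), 3 between female and male controls (22.3%) and 3 between those of the D2 arms (45.1%). With the GC index it was 0 between female and male controls and 0 in D1 controls. By limma-voom it was 5 for the difference of D1 and D1-D2 sex values (17.9%).

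Turned log2 values without a batch term were, in male D2, Shank1 −0.21, Shank2 −0.38, Shank3 −0.30 and Dlgap3 −0.19, between D1 and D2 controls Dlgap1 −0.32, Homer2 −0.51 and Ppp1r9b −0.21, and between those of males Shank1 −1.35 (called), Dlgap1 −0.56 and Homer2 −0.95. Between female and male controls they were Shank1 −0.22 and Homer2 −0.037, and in D2 controls Shank1 −0.71, Shank2 −0.64, Shank3 −0.14, Dlgap1 −0.69, Homer2 −0.56 and Tiam1 −0.53 (Shank2, Dlgap1 and Tiam1 called). For the sex difference of the D2 guide effect they were Shank2 0.23, Shank3 0.11 and Tiam1 0.16.

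With the GC index they were, in male D1, Shank2 −0.026, Dlg4 −0.0011, Dlgap3 −0.042 and Ppp1r9b −0.067, over both sexes of D1 Shank3 −0.047, Dlgap3 −0.082 and Ppp1r9b −0.11, and over all arms Dlgap3 −0.11 and Ppp1r9b −0.062. Between sexes they were Shank1 −0.012 and Homer1 0.19, in D1 Shank1 −0.029 and Homer1 0.18, and in D2 Homer1 0.14.

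With the cortical covariate they were, in female D1, Shank2 −0.049, Dlgap1 −0.30 and Homer2 −0.62, for the D1 effect minus the D2 effect Dlgap1 −0.22, and for that in females Shank1 −0.20, Dlgap1 −0.25 and Homer2 −0.82. Homer2 became 0.32 between female D1 and D2 controls and −0.32 between sexes in D1-D2, and the sex difference of the D1 effect −0.085 for Dlgap1 and −0.46 for Homer2.

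In batch 1 alone they were, over both sexes of D2, Shank3 0.33 and Dlgap3 0.23, for D1 minus D2 Shank3 −0.17, Dlgap3 −0.084 and Ppp1r9b −0.25, and for that in males Shank3 −0.39, Dlgap3 −0.41 and Ppp1r9b −0.49. Between D1 and D2 controls Shank3 was 0.22, between those of males Shank3 0.24, Dlgap3 0.31 and Ppp1r9b 0.23, and the sex difference of the D2 effect 0.12 for Homer1.

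Without 3631, 3632 and 17906 female D2 gave Dlgap1 0.065 and Homer2 0.52, female D1 minus D2 controls Dlgap1 0.21 and Homer2 0.48, the sexes in D2 controls Dlgap1 −0.067, and the sex difference of the D2 effect Shank1 0.50. By limma-voom Homer2 was 0.17 in male D1 and 0.33 between female D1 and D2 controls, and Tiam1 −0.11 over both sexes of D1-D2. With each male D1 control left out Homer2 ran from −0.79 to 0.25 in male D1, from −0.26 to 0.26 over both sexes of D1 and from −0.66 to 0.34 for the male D1 minus D2 effect, each highest without 18383. It ran from −0.21 to 0.29 between D1 and D2 controls and from −0.35 to 0.62 between those of males, both lowest without 18383.

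DESeq2 size factors moved the median of all genes between female and male D1 controls from −0.02 to −0.14. Low counts limit Homer2 most, and the male D1 control and male D1-D2 targeted groups held 4 libraries each.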
